A study of Mus musculus with 10 samples.

Results

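The genes described here build the machinery that brings proteins into mitochondria and folds them there. They were chosen by symbol: every gene whose symbol starts with Timm or Tomm followed by a digit, and 17 more (Pam16, Dnajc19, Samm50, Mtx1, Mtx2, Hspd1, Hspe1, Hspa9, Grpel1, Grpel2, Immt, Chchd3, Chchd4, Gfer, Pmpca, Pmpcb and Oxa1l). This gave 43 of the 18055 genes with a value in any library, of which 42 code for protein and 1, Tomm6os, is a long noncoding RNA caught by the letters of its symbol. Expression was measured by RNA-Seq in primary hepatocytes of C57BL/6 mice, plated in DMEM with fetal bovine serum and, by the study's methods, kept overnight without serum before the agents were added. There were 5 groups of 2 libraries each, 10 in all. Cells labelled Vehicle were the controls of the free fatty acids (FFAs) and of Neurotropin (NTP), a non-protein extract of inflamed rabbit skin used as an analgesic. PA cells received 200 uM palmitate, a saturated FFA, and LA cells 12 uM linoleate, an unsaturated FFA, each for 24 h. PA+NTP and LA+NTP cells were given NTP 1 h before the same FFA, at 0.4 NU/mL according to the RNA-Seq legend of the study, since the sample labels carry no dose. No group had NTP without an FFA. The 2 FFAs were used at different doses, so their values are set side by side and were not tested against each other. Only the effect of NTP was tested for a difference between PA and LA. Nothing in the labels says whether the libraries of a group came from separate mice or cultures, so the p-values measure only the spread between those libraries, which may be technical.

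Nearly all mitochondrial proteins are made in the cytosol as precursors. They enter through the translocase of the outer membrane (TOM), in which Tomm20, Tomm22 and Tomm70 (Tomm70a in the table of symbols) are receptors, Tomm40 is the pore, and Tomm5, Tomm6 and Tomm7 are small subunits. Beta-barrel proteins then go to the sorting and assembly machinery with Samm50, cysteine-rich proteins to the disulfide relay of Chchd4 and Gfer, carriers to the small TIM chaperones and TIM22, and precursors with a presequence to TIM23. At the matrix side of TIM23, Hspa9 (mortalin, the mitochondrial Hsp70) pulls the chain in with Timm44, Pam16, Dnajc19 and the exchange factors Grpel1 and Grpel2. The presequence is cut off by the peptidase of Pmpca and Pmpcb, and the chaperonin Hspd1 (Hsp60) with its lid Hspe1 (Hsp10) folds many of the proteins. Hepatocytes are rich in mitochondria, and the matrix chaperones are known to be induced by misfolded protein in the mitochondrial stress response.

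The tables held between 13142588 expected counts (PA replicate 1) and 60046937 (LA+NTP replicate 2) per library, and the replicates of every group differed by more than sampling noise (chi-square per gene from 3.69 to 15.57). The summed FPKM (fragments per transcript length, scaled to library size) of 6 hepatocyte markers ranged from 2197 to 3920 per library. It was lowest in PA, at 2425 and 2197, and highest in LA+NTP, at 3920 and 3699.5, with the other 6 libraries between 2665 and 3291. It ranged from 123 to 289.6 for 5 Kupffer cell markers, almost all of it Cd68, with Clec4f and Vsig4 at or near 0, and was at most 21.2 for 4 endothelial, 5 stellate, 4 cholangiocyte and 2 leukocyte markers. The cholangiocyte sum, almost all of it Sox9, was lowest in PA, at 7.7 and 8.1, with the other groups between 9.7 and 14.6. Krt19 was also lower in PA than in Vehicle, and Krt7 and Epcam, near 0, were not. Most of the hepatocyte sum was Alb. Alb, Ttr, Apoa1, Cps1 and Hnf4a had lower means in PA than in Vehicle, and Cyp2e1 a higher one (20.4 compared with 18.45). The Kupffer sum was 123 and 127 in LA, below the 178 to 289.6 of the other groups. The part of these marker levels in the results was not tested. In bulk RNA, fewer cells of a type and less RNA per cell cannot be told apart. Library values also followed the GC content of transcripts, and the direction of that trend moved with the groups. Spearman's rho between a gene's deviation from its mean and its GC content, over 13977 genes, was -0.468 and -0.473 in PA and -0.558 and -0.557 in LA, and between 0.337 and 0.561 in the other 6 libraries. Values with this trend removed are therefore given beside the results. Whether the trend came from the cells or from the libraries was not tested.

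The promoters were read for the sites of factors known to act on this machinery. The windows run from 250 bases before to 50 bases after a start site in the RefSeq table of GRCm38.p6, and 41 windows of 38 members were found. No window was found for Hspa9, Tomm7, Tomm40l, Timm21 and Grpel2, so the promoters of these genes were not searched. Both strands were searched for 5 patterns. The core of the heat shock element, GAANNTTC or TTCNNGAA, is bound by heat shock factors and was in 8 of the 41 windows (19.5%), compared with 15.1% of all 32851 windows and 12.1% of the 14086 windows of tested genes. It lay in windows of Hspd1, Hspe1, Timm8a2, Timm9, Timm10, Timm13, Tomm20 and Tomm22. The GABP core CCGGAAG was in 19 member windows, of 18 genes (46.3%, compared with 8.9% of all windows and 16.2% of those of tested genes), and the NRF1 motif in 7 (17.1%, compared with 4.6% and 9.2%). CCAAT was in 13 (31.7%, compared with 37.4% and 37.8%), and TGATGNAA, the site of C/EBP and ATF dimers, in 0 (4.0% and 2.4%). The member windows were richer in GC, at a median of 59.3% compared with 52.7% of all windows. The heat shock and GABP cores can overlap, as in TTCCGGAAG. The following 30-base stretches are examples from genes described below, and other windows with a match are not shown. With the GC trend removed, the PA change of Timm13 did not reach an adjusted p under 0.05. The first stretches hold the heat shock element in genes that PA, as fitted, raised (Hspe1, Timm9, Tomm20) and lowered (Timm13), with the matched bases in capitals:
Hspe1, chr1:55088053-55088082, plus strand: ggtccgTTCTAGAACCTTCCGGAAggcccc
Timm9, chr12:71136856-71136885, minus strand: attaggctTTCTAGAAATTTCgacagattc
Tomm20, chr8:126946137-126946166, minus strand: aagtcacaggcTTCCTGAAggacacagtga
Timm13, chr10:80901016-80901045, minus strand: gtttccttcctTTCTAGAAgccaaaggaca
Hspd1 and Hspe1 lie head to head on chromosome 1, and the Hspe1 stretch, which holds 3 overlapping matches, is also within a window of Hspd1. As fitted, the 2 metaxin genes moved in opposite directions, and with the GC trend removed no change of Mtx2 reached an adjusted p under 0.05. The next stretches hold the GABP core, in these 2 genes and in 2 TOM receptors:
Mtx1, chr3:89213908-89213937, minus strand: ccgacgcatacgagaaggtgCTTCCGGgtc
Mtx2, chr2:74825776-74825805, plus strand: gggcggagcagCCGGAAGtgccggcgcgcg
Tomm70a, chr16:57121684-57121713, plus strand: gtctagcccggcatgccccgggCTTCCGGt
Tomm22, chr15:79670811-79670840, plus strand: gcccggctcgCTTCCGGAAGacgctctgtc
A match describes these letters only. The same pattern was present in genes that, as fitted, rose and in genes that fell. The heat shock core was also in windows of Timm10 and Tomm22, which did not pass for PA as fitted.

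In Vehicle cells, the transcripts of the matrix chaperones were the most abundant of the machinery. On the FPKM scale, which is per transcript length, Hspa9 stood at 405 ± 3.85 (mean ± SD, n = 2), Hspd1 at 294 ± 13.9 and Hspe1 at 290.0 ± 18.1. Hspd1 and Hspe1 did not differ beyond their spread. Tomm6 (121 ± 2.18) and Timm23 (117 ± 0.714) followed, and no other member reached 100. A mean of at least 10 was found for 38 of the 43. Tomm40l, the second TOM pore gene, stood at 7.20 ± 0.141 and Timm22, the pore of the carrier translocase, at 4.04 ± 0.325. Exons of Tomm40l overlap Nr1i3 on the other strand by 3304 of 5135 bases (64.3%). Reads from there cannot be told apart without strand, so the level and changes of Tomm40l are uncertain. The 3 members under 1 were Tomm20l, Tomm6os and Timm8a2. Timm8a2 had 0 to 2 counts per library and was the single member that did not pass the filter on low counts. Some pairs of relatives differed in level. Timm17a (37.0 ± 2.27) stood above Timm17b (12.3 ± 1.22), and Mtx2 (44.6 ± 2.65) above Mtx1 (25.3 ± 1.12).

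PA raised the matrix chaperones, the receptors Tomm20 and Tomm70a and the small TIM genes Timm8a1 and Timm9, and lowered Timm17b, Timm13, Mtx1 and the TOM subunits Tomm6, Tomm7 and Tomm40. LA moved Hspd1, Hspa9, Timm9 and Timm17b in the same directions as PA. Compared with the FFA alone, NTP with the FFA moved each of the genes named here the other way. With the trend in GC content removed, as described below, the PA calls of Timm13 and Tomm6 and the LA call of Hspa9 were lost, and Tomm40 turned sign for PA (0.07) without passing. In that fit the NTP changes of Tomm70a, Tomm40 and Timm8a1 did not pass under either FFA, nor did that of Timm13 under PA or that of Timm9 under LA. By edgeR's quasi-likelihood test with Benjamini-Hochberg adjustment over 14097 genes, 17 of the 42 tested members (40.5%) were raised by PA at an adjusted p under 0.05, with 23.5% of all genes tested raised. PA lowered 7 members (16.7%), with 22% of all genes lowered. LA raised 9 (21.4%) and lowered 10 (23.8%), and over all genes 20.8% were raised and 20.5% lowered. Of these 4 shares the raised share under PA stood farthest from its background, and both shares under LA were near theirs. The number raised by PA was 10 without Vehicle replicate 2. PA+NTP raised 11 members (26.2%) and lowered 16 (38.1%) compared with PA, beside 21.7% and 23% of all genes. LA+NTP raised 15 and lowered 15 (35.7% each) compared with LA, beside 25.9% and 25.6% of all genes. The median log2 fold change of the 42 members was 0.11 for PA, 0.002 for LA, -0.04 for PA+NTP and 0.07 for LA+NTP, and that of all genes was between -0.008 and 0.011. Leaving out a library moved the members' median between 0.08 and 0.14 for PA, -0.06 and 0.05 for LA (without Vehicle replicate 2 and 1), -0.14 and -0.01 for PA+NTP (without PA+NTP replicate 2 and 1), and 0.04 and 0.09 for LA+NTP. The medians for LA and PA+NTP turned sign under library-size scaling.

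Most changes were small. At the fold change of 1.5 used in the study, together with the adjusted p, PA raised 6 members (Tomm6os, Hspd1, Timm9, Timm8a1, Tomm70a and Hspa9) and lowered 3 (Timm17b, Timm13 and Mtx1). Of all 14097 genes, 846 were raised and 1257 lowered, 14.9% in either direction. LA raised 0 and lowered 6 (Tomm20l, Timm13, Timm17b, Mtx1, Tomm6 and Tomm7), with 498 of all genes raised and 1002 lowered (10.6%). PA+NTP raised 4 (Tomm20l, Timm17b, Tomm6 and Mtx1) and lowered 4 (Tomm6os, Hspd1, Hspa9 and Timm9), with 1232 of all genes raised and 721 lowered (13.9%). LA+NTP raised 7 (Tomm20l, Timm17b, Timm13, Tomm6, Mtx1, Tomm7 and Tomm40) and lowered 3 (Tomm6os, Hspd1 and Hspa9). Of all genes, 1651 were raised and 1067 lowered (19.3%). PA+NTP is compared with PA, and PA with Vehicle, so these contrasts share the PA libraries. The same holds for LA and for Vehicle.

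**Figure D1:**
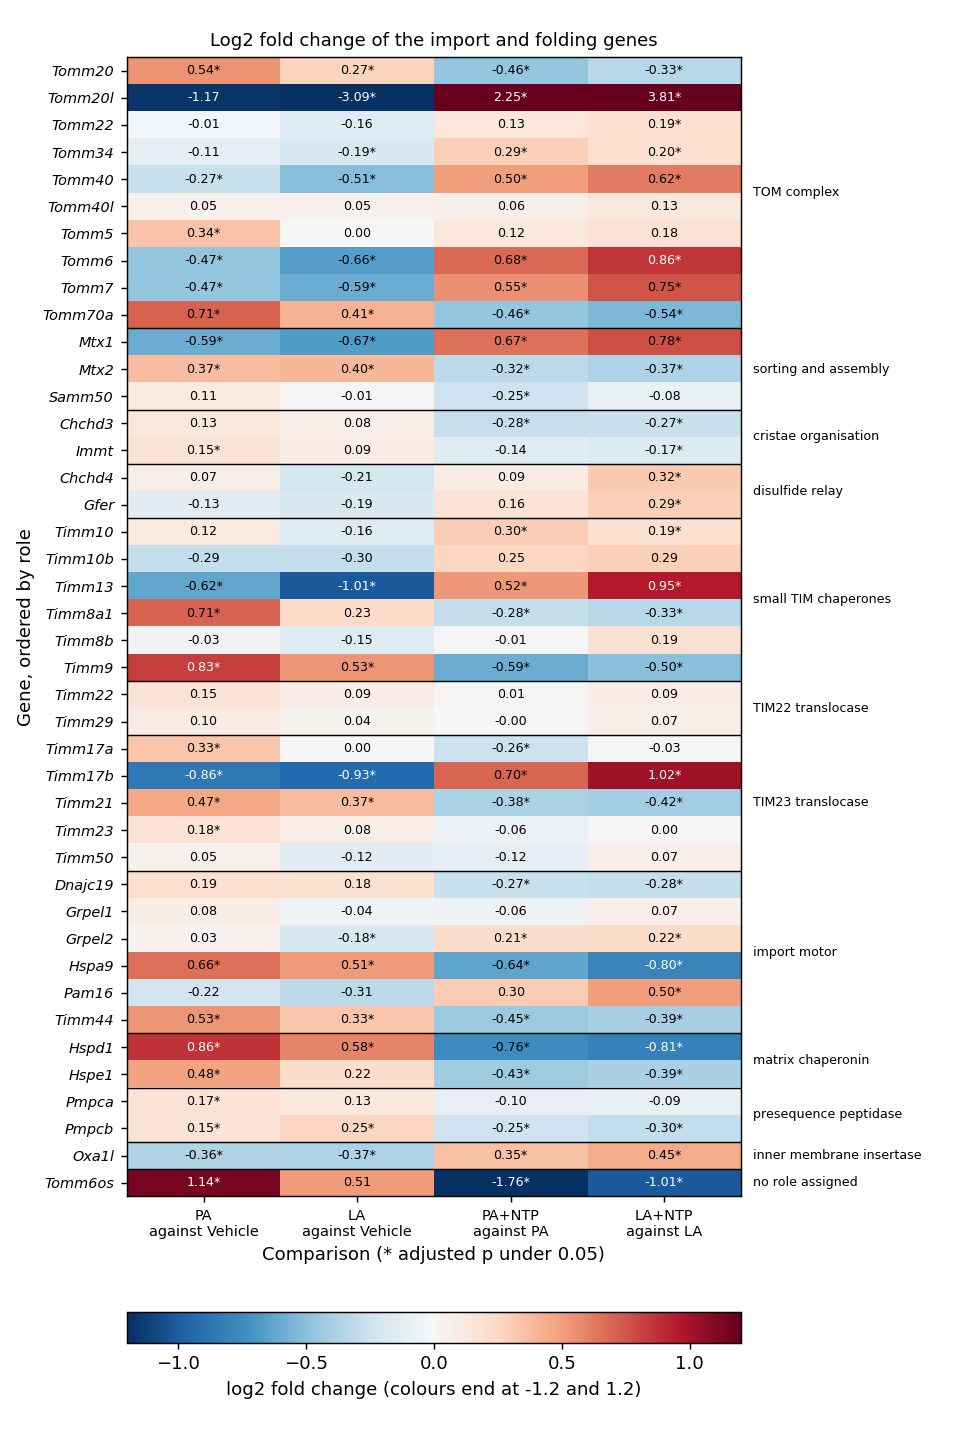
Log2 fold change of the 42 tested members (rows, ordered by role) in the 4 comparisons (columns), with red for higher and blue for lower and a star for an adjusted p under 0.05. Colors end at -1.2 and 1.2, which Tomm20l (3.81 in LA+NTP against LA) and Tomm6os (-1.76 in PA+NTP against PA) exceed. Hspd1 and Hspa9 are red in both FFA columns and blue in both NTP columns, and Timm17b, Timm13 and Mtx1 show the reverse.

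The members' changes followed their GC content as those of other genes did. The transcripts of the 43 members had a median GC content of 51.3%, from 40.3% to 61.5%, compared with 50.4% over all genes. Across the 42 tested members, which share libraries and are not independent, Spearman's rho between log2 fold change and GC content was -0.485 for PA, -0.509 for LA, 0.475 for PA+NTP and 0.508 for LA+NTP. Over 13977 genes it was -0.514, -0.628, 0.566 and 0.666. With the trend removed by a loess fit within each library, the members' rho was between -0.018 and 0.007. PA then raised 14 members (33.3%) and lowered 5 (11.9%), with 15.3% and 15.8% of all genes. LA raised 4 (9.52%) and lowered 9 (21.4%), with 8.1% and 10.3% of all genes. PA+NTP raised 7 (16.7%) and lowered 9 (21.4%) compared with PA, with 14% and 13.3% of all genes. LA+NTP raised 12 (28.6%) and lowered 8 (19%) compared with LA, with 15.4% and 12.5% of all genes. Several genes at the ends of the GC range lost calls in this fit, among them Tomm70a (40.7% GC), which kept only that for PA, and Tomm40 (58.4% GC), which kept none. Hspd1 (51.9% GC) and Tomm7 (44% GC) had changes larger than before.

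**Figure D2:**
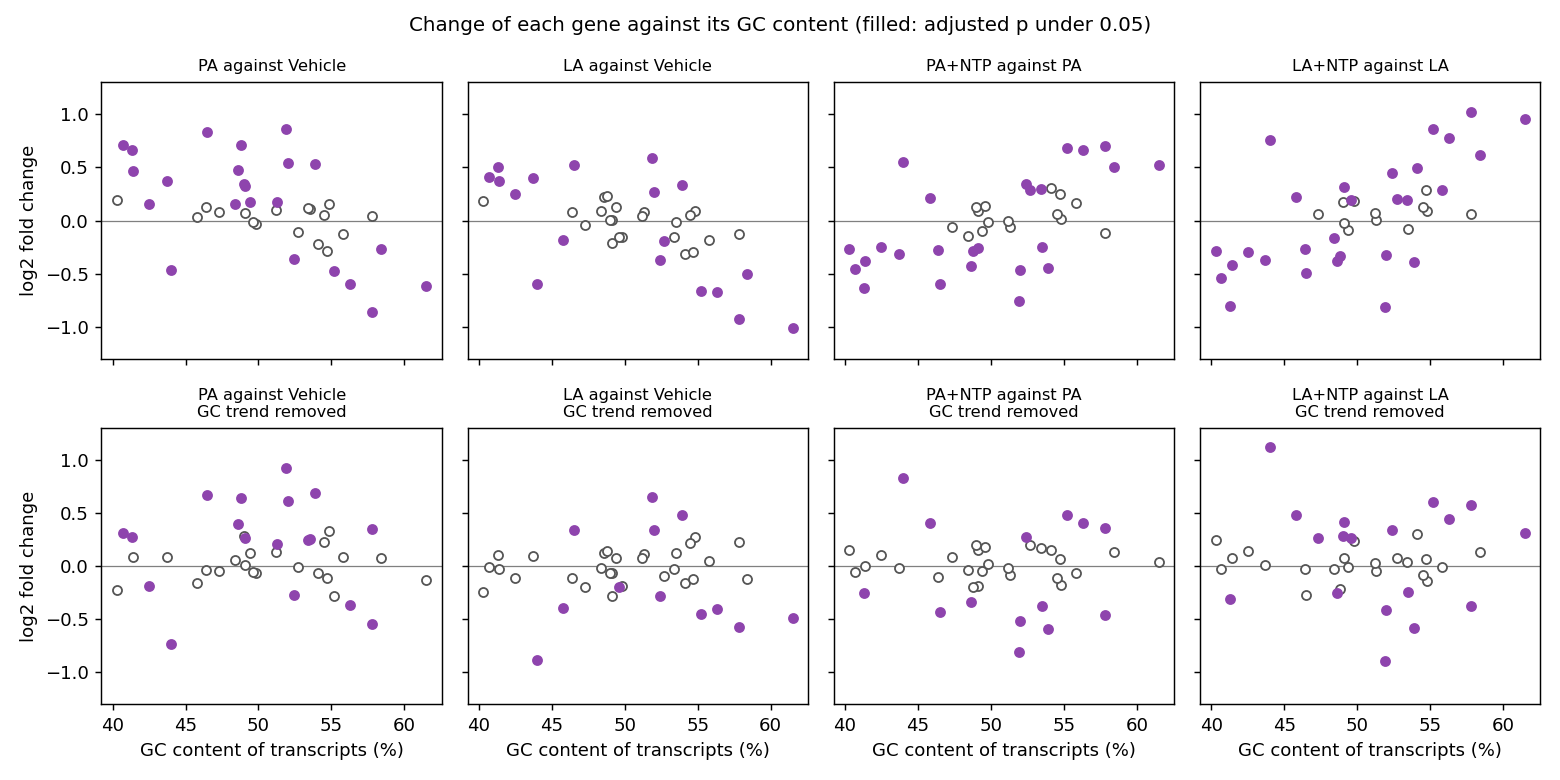
Log2 fold change (vertical axis) of 40 tested members against the GC content of their transcripts in % (horizontal axis), for the 4 comparisons, as fitted (top) and with the GC trend removed (bottom). Filled points have an adjusted p under 0.05, and Tomm20l and Tomm6os are not drawn. The slope of the top row is gone in the bottom row, where Spearman's rho over all 42 members was between -0.018 and 0.007.

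In the TOM complex, the receptors Tomm70a and Tomm20 rose with both FFAs, and the subunits Tomm6, Tomm7 and Tomm40 fell. PA raised 3 of the 10 TOM genes (Tomm70a, Tomm20 and Tomm5) and lowered 3 (Tomm6, Tomm7 and Tomm40), beside 23.5% and 22% of all genes. After removal of the GC trend, PA raised 2 (Tomm70a and Tomm20) and lowered 1 (Tomm7), beside 15.3% and 15.8% of all genes. LA raised 2 and lowered 5 as fitted (20.8% and 20.5% of all genes), and 1 and 4 with the trend removed (8.1% and 10.3%). PA+NTP raised 5 and lowered 2 as fitted (21.7% and 23%), and 3 and 1 with the trend removed (14% and 13.3%). LA+NTP raised 6 and lowered 2 as fitted (25.9% and 25.6%), and 5 and 1 with the trend removed (15.4% and 12.5%). Tomm70a (chr16:57121714-57154530, RefSeq on GRCm38.p6, as all gene coordinates here), the receptor of carrier precursors, had FPKM values of 67.2 and 69.8 in Vehicle, 107 and 112 with PA, 82.2 and 83.5 with PA+NTP, 89.7 and 87.1 with LA, and 63.4 and 61.7 with LA+NTP. Both PA libraries were the highest and the LA+NTP libraries the lowest of the 10. Its log2 fold change was 0.71 ± 0.06 (adjusted p = 6.56e-07) for PA and 0.41 ± 0.06 (adjusted p = 5.53e-05) for LA, and -0.46 ± 0.06 (adjusted p = 1.70e-05) for PA+NTP and -0.54 ± 0.06 (adjusted p = 2.57e-06) for LA+NTP. Tomm70a is poor in GC, and with the trend removed its change stayed past the threshold for PA (0.31 ± 0.05, adjusted p = 0.0008) and was -0.01, -0.05 and -0.03 in the other 3 comparisons, none past it and that for LA with its sign reversed. Tomm20 (chr8:126930664-126945921), the presequence receptor, stood at 38.7 and 39.6 in Vehicle, 54.6 and 56.8 with PA, 39.1 and 45.03 with PA+NTP, 47.9 and 43.7 with LA, and 37.7 and 37.4 with LA+NTP. PA raised Tomm20 by 0.54 ± 0.07 (adjusted p = 4.79e-05) and LA by 0.27 ± 0.07 (adjusted p = 0.00894), and NTP lowered it in PA (-0.46) and in LA (-0.33). Its 4 changes stayed past the threshold with the GC trend removed (0.61, 0.34, -0.52 and -0.42 for PA, LA, PA+NTP and LA+NTP). The LA call ended without Vehicle replicate 1 (adjusted p = 0.0666) or LA replicate 1 (adjusted p = 0.0912).

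Among the small TOM subunits, Tomm6 stood at 123 and 119.6 in Vehicle, 76.6 and 92.4 with PA, 128 and 156 with PA+NTP, 74.3 and 73.8 with LA, and 126 and 151 with LA+NTP. All 4 libraries with an FFA alone were below the other 6. The log2 fold change of Tomm6 was -0.47 ± 0.11 (adjusted p = 0.00272) for PA, -0.66 ± 0.11 (adjusted p = 0.000274) for LA, 0.68 ± 0.11 (adjusted p = 0.000163) for PA+NTP and 0.86 ± 0.11 (adjusted p = 1.39e-05) for LA+NTP. The PA change of Tomm6 did not pass with the GC trend removed (-0.28 ± 0.11, adjusted p = 0.0698). Tomm6 shares 71.8% of its 31-base sequences with other genes, most with the overlapping gene Gm21981, and the counts of these genes are uncertain. Tomm7, which bears on the stability of the complex, had values of 40.1 and 36.9 in Vehicle, 28.7 and 26.1 with PA, 37.3 and 45.5 with PA+NTP, 25.9 and 23.4 with LA, and 40.1 and 45.3 with LA+NTP, again lowest in the libraries with an FFA alone. It fell by 0.47 ± 0.11 (adjusted p = 0.00343) on the log2 scale with PA and by 0.59 ± 0.11 (adjusted p = 0.000644) with LA, and rose by 0.55 and 0.75 with NTP. The PA call of Tomm7 ended without PA replicate 2 (adjusted p = 0.0586). The changes of Tomm7 were larger with the GC trend removed, at -0.74, -0.88, 0.83 and 1.12. The third small subunit, Tomm5, was raised by PA (0.34 ± 0.10, adjusted p = 0.0149) and did not pass for LA (0.00 ± 0.10, adjusted p = 0.992) or under NTP compared with the FFA, and its PA change missed the threshold with the GC trend removed (adjusted p = 0.0509).

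The pore gene Tomm40 (chr7:19701313-19715442) stood at 38.9 and 40.1 in Vehicle, 30.2 and 33.5 with PA, 45.3 and 49.04 with PA+NTP, 29.1 and 24.6 with LA, and 43.7 and 41.4 with LA+NTP. It fell with PA (-0.27 ± 0.09, adjusted p = 0.0201) and with LA (-0.51 ± 0.09, adjusted p = 0.000362), and rose with NTP in PA (0.50) and in LA (0.62). The PA call was lost without either Vehicle library or without PA replicate 1 (adjusted p from 0.0603 to 0.123). It was also lost with a block by the numbers in the names of the deposited tables (-0.17, adjusted p = 0.123). None of the 4 Tomm40 changes passed with the GC trend removed, and that for PA had the other sign (0.07, -0.12, 0.13 and 0.13). As fitted, the central receptor Tomm22 passed only in LA+NTP (0.19 ± 0.07, adjusted p = 0.0237), and Tomm40l in none of the 4 comparisons. Their calls with the GC trend removed, and those of Tomm5 for LA and under NTP, are not listed singly here. The TOM counts given above for that fit include some of these calls. Tomm34, a cytosolic cochaperone, passed in LA (-0.19), PA+NTP (0.29) and LA+NTP (0.20), and in none of them with the GC trend removed. Tomm20l, a relative of Tomm20, was barely present, with 9 and 14 counts in Vehicle, 4 and 7 in PA, 33 and 35 in PA+NTP, 2 and 1 in LA, and 18 and 66 in LA+NTP. On library sizes, the 23 counts in Vehicle and 3 in LA gave a ratio of 9.4 (95% interval from 2.84 to 48.9), and the 84 in LA+NTP a ratio of 16.3 to LA (5.4 to 80.8), intervals that cover counting error only. The adjusted p of Tomm20l was 0.00575 for LA, 0.000333 for LA+NTP and 0.00417 for PA+NTP, the last lost without PA replicate 2 (0.104). Its exons share 49 bases with Timm9 on the other strand, and whether the counting used strand is not given in the sources used here.

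The metaxins, which work with Samm50 in outer membrane assembly, moved against each other as fitted. Mtx1 (chr3:89209081-89213907) stood at 26.1 and 24.5 in Vehicle, 17.1 and 15.8 with PA, 26.96 and 27.00 with PA+NTP, 14.6 and 16.2 with LA, and 27.3 and 26.9 with LA+NTP. Every library with an FFA alone was at or below 17.1, and every other library was at or above 24.5. The log2 fold change of Mtx1 was -0.59 ± 0.08 (adjusted p = 5.70e-05) for PA, -0.67 ± 0.08 (adjusted p = 2.52e-05) for LA, 0.67 ± 0.08 (adjusted p = 1.86e-05) for PA+NTP and 0.78 ± 0.08 (adjusted p = 2.37e-06) for LA+NTP. All 4 stayed past the threshold with the GC trend removed (-0.36, -0.41, 0.41 and 0.44). Exons of Mtx1 overlap Gm43737 by 759 bases and Thbs3 by 318 bases on the other strand. Mtx2 (chosen here after its values were seen, as were Hspe1, Timm44 and Timm17a below) stood at 46.5 and 42.8 in Vehicle, 55.4 and 57.1 with PA, 44.1 and 49.9 with PA+NTP, 59.7 and 53.9 with LA, and 46.5 and 43.9 with LA+NTP. It rose with PA (0.37 ± 0.08, adjusted p = 0.00237) and LA (0.40 ± 0.08, adjusted p = 0.00157) and fell with NTP in both (-0.32 and -0.37). Mtx2 is poor in GC (43.7%), and with the trend removed its changes were 0.08, 0.09, -0.02 and 0.01, none past the threshold. Samm50, the beta-barrel insertase, had values of 64.1 and 61.1 in Vehicle, 68.5 and 64.1 with PA, 56.7 and 59.3 with PA+NTP, 59.7 and 60.8 with LA, and 59.8 and 57.1 with LA+NTP. As fitted it passed in PA+NTP compared with PA (-0.25 ± 0.06, adjusted p = 0.00587), a call lost without PA+NTP replicate 1 (adjusted p = 0.0504), and its values for PA, LA and LA+NTP were 0.11, -0.01 and -0.08. With the GC trend removed Samm50 passed for PA (0.25 ± 0.06, adjusted p = 0.00742), PA+NTP (-0.38 ± 0.06, adjusted p = 0.000576) and LA+NTP (-0.25 ± 0.06, adjusted p = 0.00839).

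The cristae organizers Immt and Chchd3, subunits of the MICOS complex, changed little. Chchd3 stood at 80.95 and 85.7 in Vehicle, 86.96 and 90.99 with PA, 73.9 and 79.1 with PA+NTP, 82.1 and 88.5 with LA, and 73.2 and 72.4 with LA+NTP. NTP lowered it by 0.28 in PA (adjusted p = 0.00304) and 0.27 in LA (adjusted p = 0.00282) on the log2 scale, and neither passed with the GC trend removed (-0.11 and -0.03). Immt was raised by PA (0.15 ± 0.06, adjusted p = 0.0479) and lowered by LA+NTP (-0.17 ± 0.06, adjusted p = 0.0255), and neither passed with the GC trend removed. In the disulfide relay, neither Chchd4 nor the oxidase Gfer passed for an FFA. Gfer stood at 26.8 and 26.3 in Vehicle, 21.9 and 25.2 with PA, 27.04 and 28.3 with PA+NTP, 23.2 and 22.1 with LA, and 27.96 and 28.8 with LA+NTP. LA+NTP raised Gfer (0.29 ± 0.08, adjusted p = 0.0054) and Chchd4 (0.32 ± 0.09, adjusted p = 0.0109) compared with LA. The Gfer call ended without LA replicate 2 (adjusted p = 0.0549) or LA+NTP replicate 2 (0.0517), and its change was -0.01 with the GC trend removed, while that of Chchd4 was 0.42 ± 0.09 (adjusted p = 0.00386).

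The small TIM chaperones guard hydrophobic carriers on their way across the intermembrane space, Timm9 with Timm10 and Timm8 proteins with Timm13. Timm9 (chr12:71123172-71136708) stood at 16.4 and 14.6 in Vehicle, 28.6 and 25.8 with PA, 18.2 and 18.9 with PA+NTP, 21.1 and 21.3 with LA, and 14.8 and 17.04 with LA+NTP. Both PA libraries were above all others, and both LA libraries were above the remaining 6. Its log2 fold change was 0.83 ± 0.11 (adjusted p = 2.64e-05) for PA, 0.53 ± 0.11 (adjusted p = 0.00113) for LA, -0.59 ± 0.10 (adjusted p = 0.000285) for PA+NTP and -0.50 ± 0.10 (adjusted p = 0.000749) for LA+NTP. With the GC trend removed it was 0.67, 0.34, -0.43 and -0.27, the last not past the threshold (adjusted p = 0.056). Its partner Timm10 did not pass for PA (0.12 ± 0.08, adjusted p = 0.248) or LA (-0.16 ± 0.08, adjusted p = 0.121) and was raised by NTP in both (0.30 and 0.19). Once the GC trend was removed, it was the PA change of Timm10 that passed (0.25 ± 0.08, adjusted p = 0.0243), and those under NTP did not. Timm10b, which ties the small TIMs to TIM22, passed in none of the 4.

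Timm13 (chr10:80899450-80900969) was lowered by both FFAs. It stood at 39.8 and 34.6 in Vehicle, 23.8 and 23.5 with PA, 33.05 and 37.5 with PA+NTP, 18.3 and 17.4 with LA, and 36.8 and 34.4 with LA+NTP. The 4 libraries with an FFA alone were the lowest, and those of the other 3 groups overlapped. The log2 fold change was -0.62 ± 0.09 (adjusted p = 0.000112) for PA, -1.01 ± 0.09 (adjusted p = 4.14e-06) for LA, 0.52 ± 0.09 (adjusted p = 0.000394) for PA+NTP and 0.95 ± 0.09 (adjusted p = 1.65e-06) for LA+NTP. Timm13 is the member richest in GC (61.5%), and with the trend removed the LA and LA+NTP changes passed (-0.49 ± 0.09, adjusted p = 0.00252 and 0.31 ± 0.09, adjusted p = 0.0233) and the PA and PA+NTP changes did not (-0.13 and 0.04). Timm8a1 on chromosome X, counterpart of the human gene mutated in deafness-dystonia syndrome, stood at 50.8 and 53.5 in Vehicle, 82.3 and 84.7 with PA, 63.8 and 78.9 with PA+NTP, 61.3 and 56.9 with LA, and 46.2 and 50.5 with LA+NTP. PA raised it (0.71 ± 0.10, adjusted p = 4.06e-05, and 0.64 ± 0.09, adjusted p = 0.000192 with the GC trend removed), and LA did not pass (0.23 ± 0.10, adjusted p = 0.0713). NTP lowered it by 0.28 in PA and 0.33 in LA on the log2 scale, with adjusted p of 0.0225 and 0.00835. The PA+NTP call was lost in several alternatives (-0.12 with an adjusted p of 0.276 without PA+NTP replicate 1). The LA+NTP call was lost without LA replicate 1 or LA+NTP replicate 1 (adjusted p = 0.0752 and 0.0749), and neither was past the threshold with the GC trend removed. Timm8a1 shares 41.8% of its 31-base sequences with other genes, most with Gm9797. Timm8b, the most abundant of the small TIMs in Vehicle, stood at 78.4 and 69.1 in Vehicle, 72.8 and 68.8 with PA, 67.8 and 77.4 with PA+NTP, 66.5 and 61.5 with LA, and 70.1 and 79.7 with LA+NTP, and passed in none of the 4, with log2 fold changes from -0.15 to 0.19. In TIM22, neither Timm22 nor Timm29 passed in any of the 4. Timm29 stood at 15.5 and 14.3 in Vehicle, 14.9 and 16.2 with PA, 16.4 and 16.04 with PA+NTP, 13.8 and 15.9 with LA, and 16.6 and 15.6 with LA+NTP, between 13.8 and 16.6 in all 10 libraries.

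In TIM23, the 2 forms of the Tim17 subunit differed in how they moved. Timm17b (chrX:7899336-7907652) stood at 13.1 and 11.4 in Vehicle, 6.96 and 6.36 with PA, 11.3 and 10.96 with PA+NTP, 6.19 and 6.25 with LA, and 12.3 and 13.6 with LA+NTP. The libraries with an FFA alone were at or below 6.96, and the others at or above 10.96. The log2 fold change of Timm17b was -0.86 ± 0.11 (adjusted p = 2.79e-05) for PA, -0.93 ± 0.11 (adjusted p = 1.78e-05) for LA, 0.70 ± 0.11 (adjusted p = 0.000126) for PA+NTP and 1.02 ± 0.10 (adjusted p = 2.30e-06) for LA+NTP. Timm17b is at 57.8% GC, and with the trend removed the changes were -0.55, -0.58, 0.36 and 0.57, all past the threshold. Timm17a, whose protein is known to be degraded under stress, stood at 38.6 and 35.4 in Vehicle, 44.6 and 45.9 with PA, 37.6 and 41.3 with PA+NTP, 37.7 and 33.8 with LA, and 38.99 and 33.5 with LA+NTP. Timm17a was raised by PA (0.33 ± 0.10, adjusted p = 0.0117) and lowered by PA+NTP compared with PA (-0.26 ± 0.09, adjusted p = 0.0368), and its values for LA and LA+NTP were 0.00 and -0.03. With the GC trend removed the PA change of Timm17a passed (0.27 ± 0.10, adjusted p = 0.0468) and the PA+NTP change did not (-0.19 ± 0.09, adjusted p = 0.15). The difference between the 2 genes was not tested. Timm23, the channel, had values of 116 and 117 in Vehicle, 125 and 132 with PA, 122 and 136 with PA+NTP, 119 and 119 with LA, and 123 and 123 with LA+NTP. It passed only for PA (0.18 ± 0.07, adjusted p = 0.0401), a call lost under library-size scaling (adjusted p = 0.0766) and without either Vehicle library (0.145 and 0.133), and it shares 63.5% of its 31-base sequences with other genes. Timm21, which links TIM23 to the respiratory chain, was raised by PA (0.47) and LA (0.37) and lowered by NTP in both (-0.38 and -0.42), none past the threshold with the GC trend removed. Timm50, the receptor of TIM23, passed in none as fitted. With the GC trend removed Timm50 was raised by PA (0.35 ± 0.09, adjusted p = 0.0104) and lowered by NTP in PA (-0.46) and LA (-0.38).

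Of the 6 genes of the import motor, Hspa9 and Timm44 rose with both FFAs and fell with NTP. Hspa9 on chromosome 18 stood at 408 and 403 in Vehicle, 621 and 630.1 with PA, 404 and 433 with PA+NTP, 535 and 581 with LA, and 334 and 325 with LA+NTP. The PA libraries were the highest, the LA libraries next, and the LA+NTP libraries the lowest, with no overlap between these groups. Its log2 fold change was 0.66 ± 0.06 (adjusted p = 2.85e-06) for PA, 0.51 ± 0.06 (adjusted p = 3.03e-05) for LA, -0.64 ± 0.06 (adjusted p = 3.58e-06) for PA+NTP and -0.80 ± 0.06 (adjusted p = 3.42e-07) for LA+NTP. Hspa9 is at 41.3% GC, and with the trend removed it changed by less, by 0.28 ± 0.06 (adjusted p = 0.0048), 0.10 ± 0.06 (adjusted p = 0.308), -0.25 ± 0.06 (adjusted p = 0.0103) and -0.31 ± 0.06 (adjusted p = 0.00278), so that the LA change was not past the threshold. Timm44, the anchor of Hspa9 at the channel, stood at 33.1 and 35.01 in Vehicle, 48.8 and 47.4 with PA, 35.3 and 38.1 with PA+NTP, 40.6 and 42.6 with LA, and 32.95 and 32.1 with LA+NTP. It rose by 0.53 ± 0.07 (adjusted p = 3.31e-05) with PA and 0.33 ± 0.07 (adjusted p = 0.00146) with LA, and fell by 0.45 and 0.39 with NTP. At 53.9% GC, its changes with the trend removed were larger (0.68, 0.48, -0.60 and -0.58). The exchange factor Grpel1 passed in none of the 4. Its relative Grpel2 was lowered by LA (-0.18 ± 0.06, adjusted p = 0.0252) and raised by NTP in PA (0.21) and LA (0.22). The J proteins of the motor passed only under NTP, Dnajc19 lowered (-0.27 in PA and -0.28 in LA) and Pam16 raised in LA (0.50), none of them past the threshold with the GC trend removed, where Grpel1 passed in LA+NTP (0.26 ± 0.06, adjusted p = 0.00782).

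The chaperonin gene Hspd1 (chr1:55077833-55088243) had the lowest adjusted p of the members for PA. Its FPKM values were 284 and 303 in Vehicle, 526 and 518 with PA, 309 and 333 with PA+NTP, 428 and 425 with LA, and 254 and 245 with LA+NTP. The 5 groups did not overlap, in the order PA, LA, PA+NTP, Vehicle and LA+NTP from high to low. PA raised Hspd1 by 0.86 ± 0.06 (adjusted p = 3.05e-07) on the log2 scale, or by 82.0%, and LA by 0.58 ± 0.06 (adjusted p = 9.35e-06), or 50%, just under the 1.5-fold mark. NTP lowered it by 0.76 ± 0.06 (adjusted p = 9.30e-07) in PA and by 0.81 ± 0.06 (adjusted p = 2.69e-07) in LA. All 4 stayed past the threshold with the trend in GC content removed (0.93, 0.65, -0.81 and -0.90). Hspe1, head to head with Hspd1, stood at 303 and 277 in Vehicle, 385 and 404 with PA, 279 and 331 with PA+NTP, 316 and 337 with LA, and 246 and 268 with LA+NTP. Its change was 0.48 ± 0.09 (adjusted p = 0.0004) for PA and 0.22 ± 0.08 (adjusted p = 0.0537) for LA, the latter not past the threshold, and -0.43 ± 0.08 (adjusted p = 0.000888) for PA+NTP and -0.39 ± 0.08 (adjusted p = 0.00148) for LA+NTP. The 3 that passed stayed past the threshold with the GC trend removed (0.40, -0.34 and -0.26). The heat shock element matches printed above lie within a promoter window of each gene. Hspd1 shares 50.1% of its 31-base sequences with other genes, most with Hspd1-ps3, and Hspe1 24.8%, and the exons of the pair overlap by 112 bases.

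**Figure D3:**
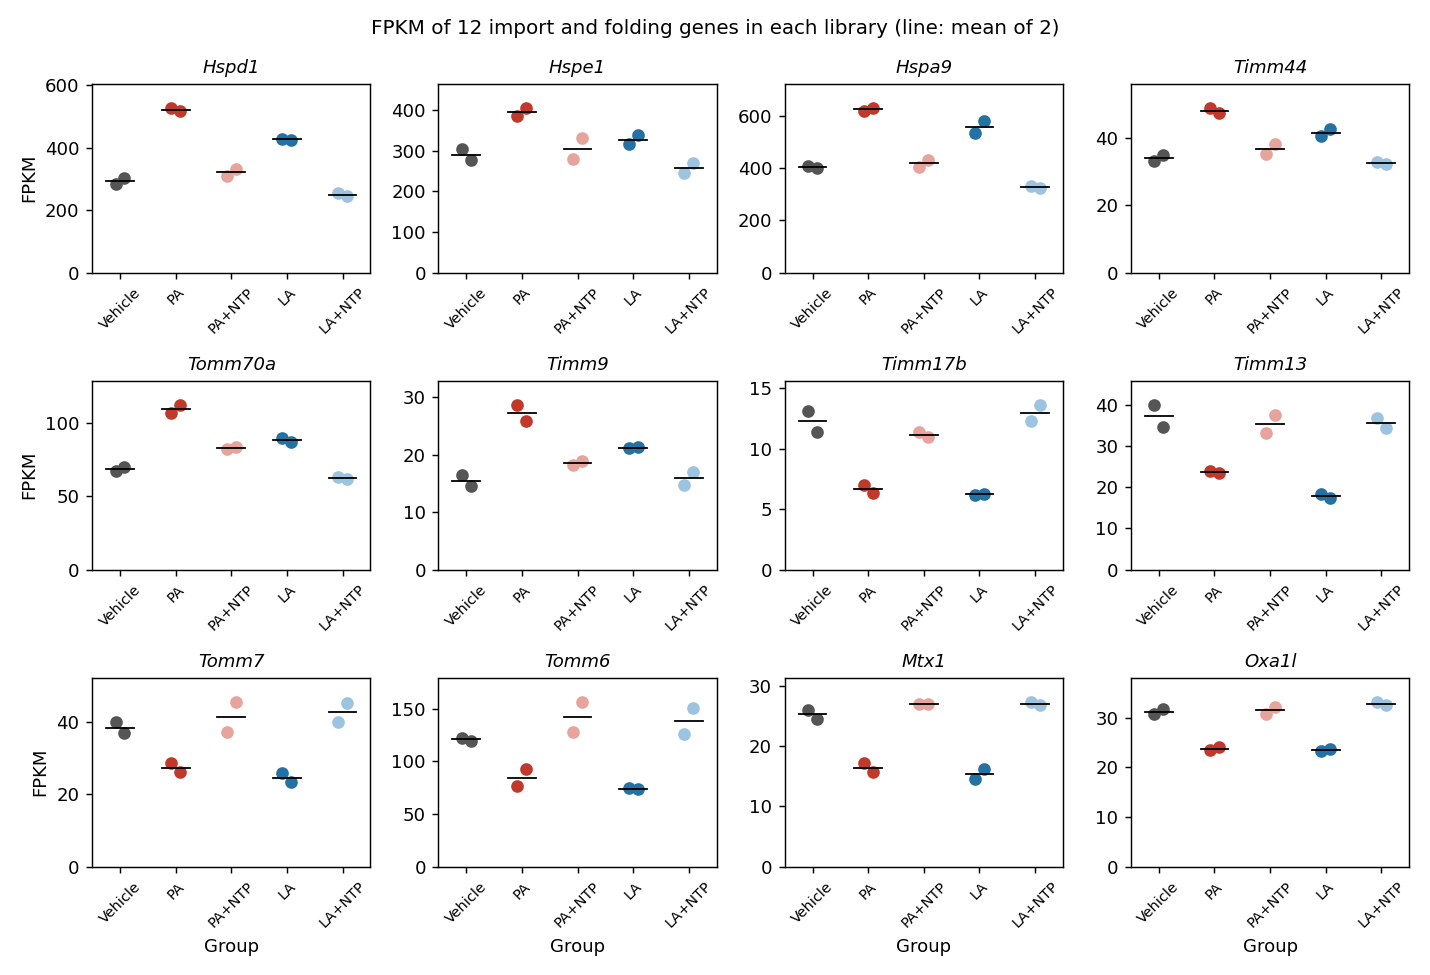
FPKM (vertical axis, from 0) of 12 members in each library of the 5 groups (horizontal axis), with a point per library and a line at the mean of 2. Hspd1, Hspe1, Hspa9, Timm44, Tomm70a and Timm9 are highest with PA, and Timm17b, Timm13, Tomm7, Tomm6, Mtx1 and Oxa1l are lowest with an FFA alone.

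Hspa9, Hspd1 and Hspe1 made up between 34.2% and 47.9% of the machinery's summed FPKM. The summed FPKM of all 43 members was 2605 and 2547 in Vehicle, 3202 and 3246 with PA, 2639.7 and 2908 with PA+NTP, 2785 and 2832 with LA, and 2428 and 2454 with LA+NTP. The 3 chaperones summed to 994.5 and 983 in Vehicle, 1532 and 1552 with PA, 992 and 1097 with PA+NTP, 1279 and 1343 with LA, and 834 and 838 with LA+NTP. They held 47.8% and 47.9% of the sum with PA and 34.2% and 34.3% with LA+NTP. The other 40 members summed to between 1489 (LA replicate 2) and 1811 (PA+NTP replicate 2). That sum was lowest in the LA libraries, in which the chaperones stood above Vehicle.

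**Figure D4:**
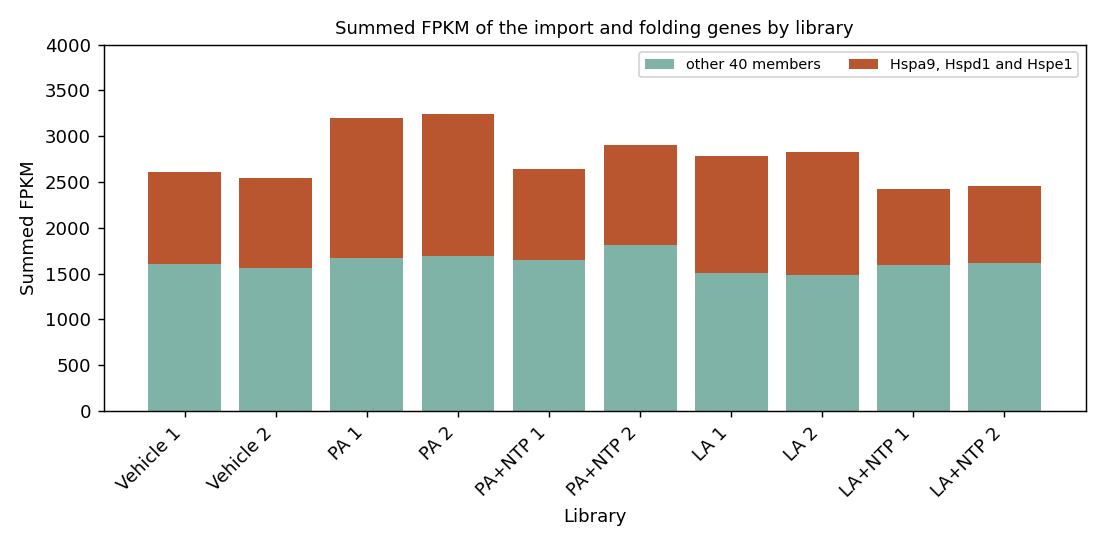
Summed FPKM (vertical axis, from 0) of the 43 members in each of the 10 libraries (horizontal axis), split into Hspa9, Hspd1 and Hspe1 (top of the bar) and the other 40 members (bottom). The top part runs from 834 in LA+NTP replicate 1 to 1552 in PA replicate 2, and the bottom part from 1489 to 1811.

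Past the import steps, the processing peptidase changed by less. Pmpcb, its catalytic subunit, stood at 75.8 and 74.5 in Vehicle, 80.7 and 82.3 with PA, 70.2 and 72.9 with PA+NTP, 84.8 and 88.3 with LA, and 73.1 and 71.7 with LA+NTP. It was raised by PA (0.15 ± 0.06, adjusted p = 0.0449) and LA (0.25 ± 0.06, adjusted p = 0.00305) and lowered by NTP in both (-0.25 and -0.30). Pmpcb is at 42.5% GC, and with the trend removed all 4 signs turned, to -0.19, -0.11, 0.10 and 0.14, the PA value past the threshold (adjusted p = 0.0268). The PA call was also lost under DESeq2, library-size scaling, no filter, a minimum mean FPKM of 1, both limma runs and 6 of the 10 fits that left out a library, with adjusted p from 0.057 to 0.192. Pmpca was raised by PA (0.17 ± 0.06, adjusted p = 0.0365) and passed in no other of the 4, and in none with the GC trend removed. Oxa1l (chr14:54360841-54369669), which inserts proteins into the inner membrane from the matrix side, stood at 30.7 and 31.8 in Vehicle, 23.5 and 24.03 with PA, 30.8 and 32.3 with PA+NTP, 23.2 and 23.7 with LA, and 33.1 and 32.6 with LA+NTP. The 4 libraries with an FFA alone were between 23.2 and 24.0 and the other 6 between 30.7 and 33.1. Its log2 fold change was -0.36 ± 0.06 (adjusted p = 0.000354) for PA, -0.37 ± 0.06 (adjusted p = 0.000312) for LA, 0.35 ± 0.06 (adjusted p = 0.000428) for PA+NTP and 0.45 ± 0.06 (adjusted p = 3.13e-05) for LA+NTP, and with the GC trend removed -0.27, -0.29, 0.27 and 0.34, all past the threshold.

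Tomm6os, the noncoding RNA, is transcribed from the strand opposite Tomm6 and was low, with 25 to 120 counts per library. Its FPKM values were 0.70 and 0.40 in Vehicle, 1.33 and 1.03 with PA, 0.45 and 0.26 with PA+NTP, 0.79 and 0.68 with LA, and 0.45 and 0.32 with LA+NTP. The log2 fold change was 1.14 ± 0.34 (adjusted p = 0.0133) for PA, 0.51 ± 0.34 (adjusted p = 0.262) for LA, -1.76 ± 0.34 (adjusted p = 0.000785) for PA+NTP and -1.01 ± 0.33 (adjusted p = 0.0196) for LA+NTP. These signs are opposite to those of Tomm6. The PA call of Tomm6os was lost without Vehicle replicate 2 (adjusted p = 0.161) or PA replicate 1 (0.0666), and the LA+NTP call without LA replicate 1 (0.113) or LA+NTP replicate 2 (0.16). Its exons overlap those of Prickle4 by 1221 bases, Gm21981 by 958 and Tomm6 by 219 on the other strand, so reads of these genes cannot be told apart without strand.

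Of 34 other genes of import, presequence processing and mitochondrial protein quality control, 12 were raised and 4 lowered by PA, beside 23.5% and 22% of all genes, and 7 were raised and 6 lowered by LA, beside 20.8% and 20.5%. PA+NTP raised 4 and lowered 13 of them compared with PA, beside 21.7% and 23% of all genes, and LA+NTP raised 7 and lowered 13 compared with LA, beside 25.9% and 25.6%. With the GC trend removed, PA raised 10 (29.4%) and lowered 2 (5.88%), beside 15.3% and 15.8% of all genes. LA raised 6 (17.6%) and lowered 4 (11.8%), beside 8.1% and 10.3%. In that fit PA+NTP raised 3 (8.82%) and lowered 7 (20.6%), beside 14% and 13.3%. LA+NTP raised 4 (11.8%) and lowered 7 (20.6%), beside 15.4% and 12.5%. As fitted, the largest change was that of Romo1, a small partner of TIM23, at 78.8 and 75.3 in Vehicle, 43.8 and 41.2 with PA, 74.1 and 73.5 with PA+NTP, 37.7 and 39.9 with LA, and 81.9 and 92.1 with LA+NTP. Its log2 fold change was -0.83 ± 0.09 (adjusted p = 5.84e-06) for PA, -0.94 ± 0.09 (adjusted p = 3.63e-06) for LA, 0.75 ± 0.09 (adjusted p = 1.19e-05) for PA+NTP and 1.13 ± 0.08 (adjusted p = 2.14e-07) for LA+NTP, and it passed in all 4 with the GC trend removed (-0.46, -0.52, 0.34 and 0.60). Yme1l1, the inner membrane protease that faces the intermembrane space, went the other way (0.70, 0.62, -0.73 and -0.84 in the same order). The matrix protease ClpXP was split. Its unfoldase Clpx rose with PA (0.59) and LA (0.51) and fell with NTP (-0.69 and -0.46), and its peptidase Clpp fell (-0.32 and -0.62) and rose with NTP (0.38 and 0.72). Atad1, which extracts misplaced proteins from the outer membrane, rose with PA (0.64) and LA (0.49) and fell with NTP (-0.46 and -0.61), as did the third metaxin gene Mtx3 (0.62, 0.51, -0.31 and -0.48). With the GC trend removed, the changes of Yme1l1 and Clpx passed in 3 of the 4 comparisons, those of Clpp in 2, for LA and LA+NTP, and those of Atad1 and Mtx3 only for PA.

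Cells with NTP and an FFA were also compared with Vehicle. In PA+NTP, 5 members passed (11.9%), all higher than in Vehicle. Over all genes 4.5% were raised and 5.61% lowered, 10.1% in either direction. The members that passed are listed next. They were Tomm5 (0.47 ± 0.10, adjusted p = 0.00983), Timm8a1 (0.43 ± 0.09, adjusted p = 0.0103), Timm10 (0.41 ± 0.08, adjusted p = 0.00323), Tomm70a (0.25 ± 0.06, adjusted p = 0.011) and Grpel2 (0.24 ± 0.06, adjusted p = 0.0199). Their number was 1 without Vehicle replicate 2 and 9 without PA+NTP replicate 1. Hspd1 stood at 0.10 ± 0.06 (adjusted p = 0.327) and Hspa9 at 0.02 ± 0.06 (adjusted p = 0.872). In LA+NTP, 0 members passed by edgeR, with 0.284% of all genes passing. At an unadjusted p under 0.05 there were 4 members and 2014 of the 14097 genes, and DESeq2 called 2 members and 282 of 18027 genes. The lowest adjusted p was that of Hspa9, -0.29 ± 0.06 (adjusted p = 0.0659), and Hspd1 was at -0.23 ± 0.06 (adjusted p = 0.117). Whether NTP acted differently under PA than under LA was tested as an interaction. It passed for 0 members, with 0% of all genes passing by edgeR, 2 members (Timm13 and Timm17b) and 1029 of the 14097 genes were under an unadjusted p of 0.05, and DESeq2 called 0 members and 6 of 18027 genes. With 2 libraries a group, the exact permutation test of a single gene cannot go below a 2-sided p of 0.333, and the calls above draw on a spread estimated over all genes.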

How the data were processed

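RNA-Seq was performed on 10 libraries of primary mouse hepatocytes. The authors used HISAT and Bowtie2 for alignment and RSEM for quantification, and the processing notes name mm10. Versions, annotation and the use of strand were not given in the sources used here. The authors deposited, for each library, RSEM's expected counts per gene, not normalized between libraries, and FPKM values, which the methods call RPKM and which were scaled for gene length and depth. Depth was 13142588 to 60046937 expected counts. Genes were listed from an FPKM of 0.01, and a missing gene was taken as 0. Gene IDs were matched to the RefSeq table of GRCm38.p6 (17998 by ID, 11 by accession, 46 unmatched). GC content, shared sequence and exon overlaps were computed from the transcripts and annotation of the reference genome given here.

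Expected counts were rounded to whole numbers and tested in R 4.3.3 by the quasi-likelihood F test of edgeR 4.0.16 (TMM, filterByExpr). One factor with 5 levels described the groups in a fit of all 10 libraries, and p-values were adjusted by Benjamini-Hochberg over the 14097 genes left by the filter. A gene passed at an adjusted p under 0.05. Log2 fold changes are given ± standard error, and FPKM per library. Groups and replicate numbers followed the sample labels, from which the numbers in the names of the deposited tables differ in part. Alternatives were DESeq2 1.42.0, limma 3.58.1 on log2(FPKM + 1) and log2(FPKM + 0.1), the study's NOISeq rule (fold of 1.5, probability of 0.95), written from its definition and also run at a looser probability of 0.8 chosen here, other scalings, filters and fits, GC trend removal (loess, span 0.4) and leaving out each library. The scripts were tested on simulated data. The members and gene lists were chosen with earlier results of these data known. Values per library were given for at most 14 passing members with the largest changes, for the most abundant member of each role, and for 4 more named as such.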

Additional observations from a re-analysis of the deposited data

How the results depend on the processing

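Only calls of the named members that had passed in the main fit were recomputed, and many of these members were named for their large changes. Agreement was therefore favored in advance. Of the 1380 recomputed calls, 1294 kept their direction and their side of the threshold. Another 72 kept the direction and missed it, and 14 reversed. Leaving out a library gave 660 of the calls, of which 630 were kept. With the GC trend removed and no block, 45 of 66 were kept, 14 missed the threshold and 7 reversed. All 14 reversals came with the GC trend removed, 7 without and 7 with the replicate block: Tomm70a for LA (-0.0089 and -0.0088 with the block), Tomm40 for PA (0.0721 and 0.0725), Gfer for LA+NTP (-0.012 and -0.0147), and Pmpcb for PA (-0.1858 and -0.1862), LA (-0.1083 and -0.1082), PA+NTP (0.0993 and 0.0996) and LA+NTP (0.1433 with and without it). With the GC trend removed, counts of members moved by over 1.5 times to 4 raised by LA, 7 raised and 9 lowered by PA+NTP and 8 lowered by LA+NTP, and with the block added to 4 raised by LA, 9 lowered by PA+NTP and 8 lowered by LA+NTP. Library-size scaling and limma on log2(FPKM + 0.1) each gave 16 lowered by LA. These 2 settings shifted the LA changes of all genes by a median of -0.0461 and -0.0452 log2. The share of all genes called was not counted under these settings, the NOISeq rule or the fits that left out a library. At a fold of 1.5 the counts raised and lowered were 6 and 3 for PA, 0 and 6 for LA, 4 and 4 for PA+NTP, 7 and 3 for LA+NTP, and 0 for PA+NTP against Vehicle. The NOISeq rule called 0 in each comparison at 0.95, and at 0.8 called 5 raised and 0 lowered by PA, 0 and 4 by LA, 1 and 1 by PA+NTP, 7 and 2 by LA+NTP, and 0 for PA+NTP against Vehicle. The rule was also run on simulated data, made for the 14097 tested genes with the same spread for every gene. The real values it was run on had no filter on low counts, so the settings differ. In the simulated data, the rule at 0.95 found 0 of 100 genes changed by 0.5 log2 and 25 of 100 changed by 1 log2. At 0.8 it found 14 and 69. The 0 calls at 0.95 therefore say little about the members. The NOISeq rule was not run for the interaction. For LA+NTP against Vehicle, DESeq2 and no filter gave 2 members each, library-size scaling 1 and a fit of only the groups compared 3. That last fit gave 3 for PA+NTP against Vehicle.

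Leaving out each library gave 10 (without Vehicle replicate 2) to 17 raised and 6 to 7 lowered by PA, 7 to 11 and 8 to 10 by LA, 10 to 14 and 11 to 18 by PA+NTP, and 11 to 15 and 12 to 15 by LA+NTP. It gave 1 to 9 for PA+NTP against Vehicle, 0 to 2 for LA+NTP against Vehicle, and 0 for the interaction. What caused these differences between the fits was not tested. Same-numbered libraries shared little beyond the number: the correlations of their deviations ran from -0.069 to 0.127. The replicate block by the label numbers changed no call of a named member in the 4 FFA and NTP comparisons. The block by the numbers in the names of the deposited tables ended the PA call of Tomm40 (-0.1696, adjusted p = 0.123). The block gave 1 member for LA+NTP against Vehicle by either numbering.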
